A study of Rattus norvegicus with 210 samples.

Results

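The libraries described here are the 10 vehicle libraries of the mediobasal hypothalamus (MBH) at postnatal day (PND) 22 and PND42, 5 at each age, chosen by the labels alone from the 210 libraries of the study. Each library was made from whole-tissue RNA of a female Sprague-Dawley rat whose dam had received corn oil, the carrier of the test compounds, by gavage from pregnancy until weaning at PND22. The other libraries came from the MBH and the preoptic area (POA) of vehicle rats and of rats whose dams had received ketoconazole (KTZ, a fungicide that blocks steroid synthesis) or diethylstilbestrol (DES, a synthetic estrogen), at PND22, PND42 and PND90. The sets used for comparison were the 10 POA vehicle libraries of PND22 and PND42, the 5 MBH vehicle libraries of PND90, and the 30 MBH libraries of the DES groups (3, 6 and 12 µg/kg) at PND22 and PND42. Different rats were killed at each age, so that an age difference is a difference between animals. Read counts over genes came to between 18459642 and 22522907 per library at PND22 and between 20543108 and 24235728 at PND42.

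The MBH holds the arcuate, ventromedial and dorsomedial nuclei, the median eminence and the tanycytes that line the floor of the ventricle. Its kisspeptin, neurokinin B and dynorphin neurons drive the pulsatile release of gonadotropin-releasing hormone (GnRH), and its Agrp and Pomc neurons read the energy state. Between weaning and the weeks after vaginal opening the GnRH pulse generator of the female rat reaches its adult rhythm. In the same weeks myelin is laid down, precursor cells leave the cycle, capillaries mature and the subunits of neurotransmitter receptors change.

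Before the ages were compared, the age and the region of each library were checked. An age score was built from 100 genes that were higher and 100 that were lower at PND90 than at PND22 in POA vehicle rats, as the difference of their mean log2 levels. The MBH vehicle libraries of PND22 scored between -0.87 and -0.67, and those of PND42 between 0.33 and 0.95. The POA vehicle libraries scored between -1.28 and -1.05 at PND22, between 0.32 and 0.78 at PND42 and between 1.36 and 1.76 at PND90. Both MBH vehicle groups therefore lay nearest the POA vehicle rats of their labelled age. The MBH vehicle libraries labelled PND90 did not: they scored between -0.98 and -0.59, in the range of PND22. The DES groups of the MBH went against their labels as well, with group medians of 0.47 to 0.71 at PND22 and 1.34 to 1.57 at PND42. The KTZ groups of the MBH had medians of 0.58 to 0.8 at PND22 and of -0.8 to 1.46 at PND42. Vehicle PND42 thus scored with the DES groups labelled PND22 and below those labelled PND42. The labels of the vehicle groups were matched against the POA alone.

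**Figure D1:**
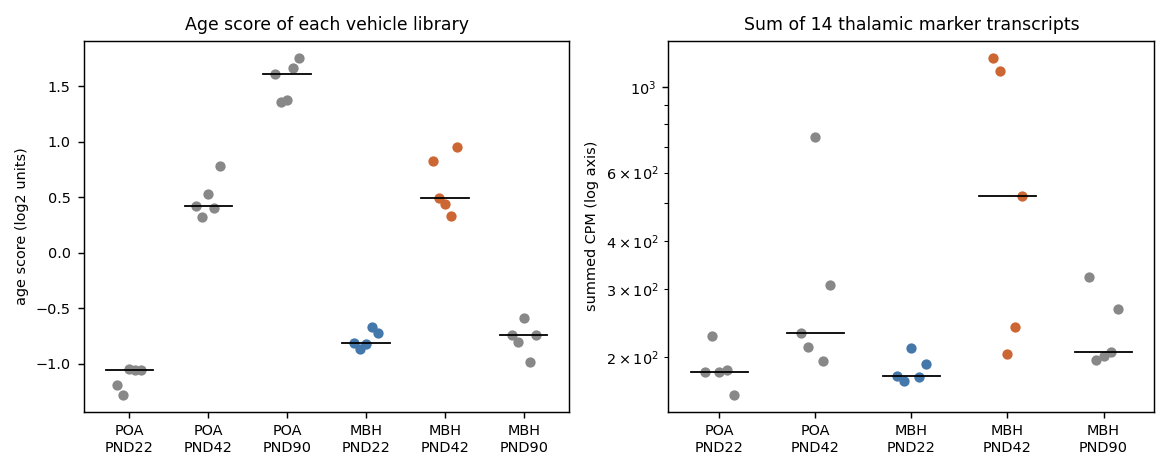
Left, the age score of each vehicle library in log2 units; right, the summed level of 14 thalamic marker transcripts in CPM (gene counts scaled to a common library total; log axis). Points are libraries, lines are group medians, and MBH PND22 is in blue and MBH PND42 in orange: MBH PND42 scored 0.33 to 0.95 for age and its thalamic sum ran from 204 to 1190 CPM, against 174 to 211 CPM at PND22.

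Transcripts of the thalamus, which lies above the hypothalamus, separated the PND42 libraries from each other. Levels are CPM throughout, that is, gene counts after scaling every library to the same total, in the order of replicates 1 to 5. The summed level of the 14 thalamic markers was 179, 174, 211, 178 and 192 CPM at PND22 and 1190, 1100, 204, 239 and 522 CPM at PND42. Replicates 1, 2 and 5 of PND42 were thus far above every PND22 library, whereas replicate 3 lay within the PND22 range and replicate 4 slightly above it. Of 13 tested thalamic markers, 9 were called higher at PND42 and none lower, with a median log2 fold change of 2.00. List counts and the named genes that lost or gained a call are therefore also given without these 3 libraries, with the log2 fold change, since that fit has 2 PND42 libraries and a call can be lost with little change in the fold. In PND42 replicate 4 alone the pituitary hormone transcripts Prl and Gh1 stood at 35.1 and 20.4 CPM, against at most 0.413 and 0.454 CPM in the other 9 libraries. In the POA, PND22 replicate 4 carried 35.9 CPM of Npvf against at most 0.316 CPM in the other 4, and 12.1 CPM of Agrp against at most 1.34 CPM, both peptides of the mediobasal region. That library goes against its region label, and POA results are given without it too.

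Between PND22 and PND42, 2295 of 14861 tested genes changed in the vehicle MBH (15.4% of those tested, edgeR quasi-likelihood test, adjusted p under 0.05): 1208 rose (8.13%) and 1087 fell (7.31%). For 1846 genes (12.4%) the 5 values of one age all lay on one side of the 5 of the other, 797 above (5.36%) and 1049 below (7.06%) at PND42. The median log2 fold change over all tested genes was -0.0081. List counts below are to be read beside the 8.13% of all genes that rose and the 7.31% that fell. Rank correlations between libraries ran from 0.989 to 0.994 within PND22, from 0.98 to 0.993 within PND42 and from 0.969 to 0.992 between the ages. Without PND42 replicates 1, 2 and 5, 317 of 15324 tested genes were called, 172 higher and 145 lower. Of the 317, 279 were among the 2295, and 2292 of the 2295 kept their sign. With the mean thalamic level of each library as a covariate, 86 genes were called and 2263 of the 2295 kept their sign. The number of calls also moved with single libraries. It was 1052, 1229, 1439 and 1432 without PND22 replicate 1, 2, 3 or 5, it was 1134 and 1296 without PND42 replicate 1 or 2, and it was 3548 without PND42 replicate 4.

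**Figure D2:**
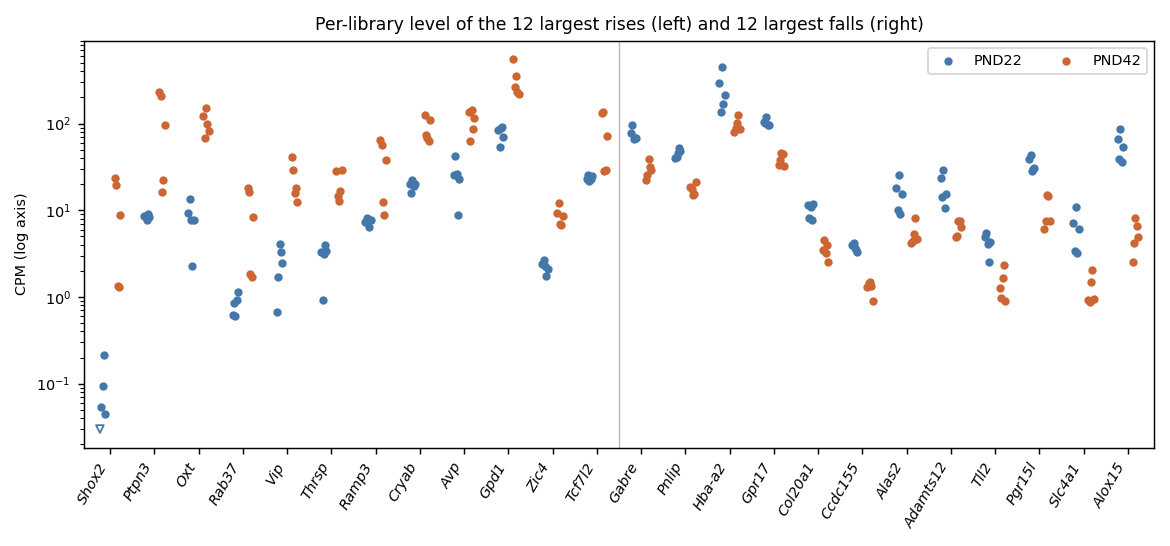
Level of the 12 genes with the largest rise (left of the line) and the 12 with the largest fall (right), in CPM on a log axis. Only called genes with a gene symbol, a mean of at least 1 log2 CPM and ages that did not overlap were ranked. The 5 PND22 libraries are in blue and the 5 PND42 libraries in orange. The open triangle marks a library with no Shox2 count. For Shox2, Ptpn3, Rab37, Ramp3 and Tcf7l2 the PND42 points spread widely, with replicates 1, 2 and 5 above replicates 3 and 4. For Oxt and Cryab the PND42 points lie closer together. By the ranking rule, all 5 PND42 values of every gene shown lie on one side of the PND22 values.

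The oligodendrocyte lineage gave some of the clearest changes. Gpr17, a receptor of newly formed oligodendrocytes that is switched off as they mature, stood at 104, 102, 118, 97.5 and 97.1 CPM at PND22 and at 33.7, 38.2, 45.4, 44.7 and 32.5 CPM at PND42. The groups lay well apart, and the log2 fold change was -1.36 (SE 0.09, adjusted p = 1.2e-05). In these bulk samples fewer cells of a type and less RNA per cell cannot be told apart. Some transcripts of the precursor stage fell with it. Pdgfra, the growth factor receptor of the precursors, fell by 0.47 on the log2 scale (SE 0.07, adjusted p = 0.0027), and Tnr, the matrix protein tenascin R, fell by 0.74 (SE 0.12, adjusted p = 0.003). Cspg4, the NG2 proteoglycan, fell by 0.36 and the kinase gene Fyn by 0.35. Enpp6, a choline phosphodiesterase of oligodendrocytes that have just begun to differentiate, fell by 0.72, with PND42 replicate 5 at 22.8 CPM above PND22 replicate 2 at 20 CPM. Of 13 tested members of the precursor list 6 fell and 1 rose, with a median of -0.22, and 4 were called lower without the thalamus-rich libraries, where Pdgfra (-0.41, adjusted p = 0.064) and Cspg4 (-0.40, adjusted p = 0.13) had like folds and no call. The member that rose was Tcf7l2, which is also a transcription factor of thalamic neurons: it stood at 133, 137 and 71.1 CPM in the 3 libraries rich in thalamic transcripts and at 28.3 and 28.8 CPM in replicates 3 and 4, against 21.9 to 25.2 CPM at PND22. Without the 3 libraries its log2 fold change was 0.28 (adjusted p = 0.13).

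At the other end of the lineage, 6 of 21 tested myelin genes rose and none fell, with a median of 0.42. Cryab, the small heat shock protein alpha B-crystallin of mature oligodendrocytes, stood between 15.8 and 22.1 CPM at PND22 and at 126, 73.8, 68.9, 62.4 and 109 CPM at PND42, a log2 fold change of 2.25 (SE 0.21, adjusted p = 9.8e-05). Every PND42 value was well above every PND22 value. Tf, the iron carrier transferrin that mature oligodendrocytes make, went from 361, 262, 376, 296 and 371 CPM to 1030, 883, 743, 958 and 995 CPM, a log2 fold change of 1.53 (SE 0.12, adjusted p = 5.5e-05). Hapln2, a link protein of the node of Ranvier, rose by 1.32 on the log2 scale, Gjb1, the gap junction protein connexin 32, by 0.94, and Ermn, which encodes the cytoskeletal protein ermin of late myelination, by 0.82. Mog, a protein of the outer myelin surface, rose by 0.56. Of these 6, Cryab, Tf and Hapln2 were called without the 3 thalamus-rich libraries too, whereas Gjb1 (0.72, adjusted p = 0.099), Ermn (0.71, adjusted p = 0.061) and Mog (0.30, adjusted p = 0.18) were not. Mbp, the abundant myelin basic protein, did not pass the test, with a log2 fold change of 0.50 (SE 0.21, adjusted p = 0.11) and overlapping groups. With DESeq2, the tool the study used, 14 of the 21 myelin genes were called higher.

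**Figure D3:**
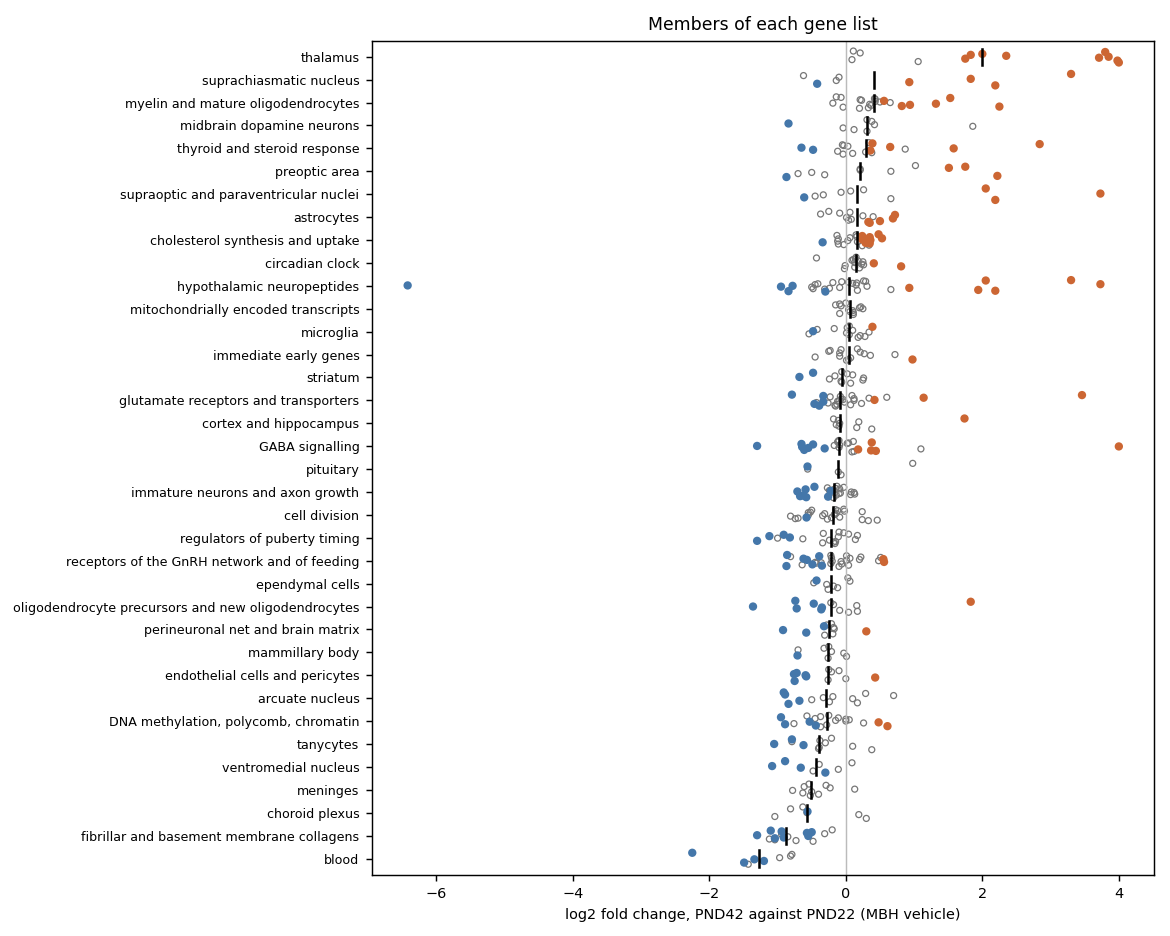
Log2 fold change of each tested member of the 36 gene lists, PND42 against PND22. Filled points passed the test (orange higher, blue lower), open points did not, and black bars are list medians, which run from -1.27 for the blood list to 2.00 for the thalamus list; the far left point of the neuropeptide list is Npw at -6.42.

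Among red cell transcripts 4 of 8 tested fell. Slc4a1, the anion exchanger of the red cell membrane, stood at 7.05, 3.38, 11, 3.25 and 6.04 CPM at PND22 and at 0.922, 0.876, 1.47, 2.02 and 0.949 CPM at PND42, a log2 fold change of -2.25 (SE 0.35, adjusted p = 0.0026). Alas2, the first enzyme of haem synthesis in red cells, fell by 1.49 and the alpha globin genes Hba-a2 and Hba-a1 by 1.34 and 1.20. No member of the blood list rose. PND22 replicates 1 and 3 were highest for all 4, with no overlap between the ages, and without the 3 thalamus-rich libraries none of the 4 was called, at log2 fold changes of -1.82 for Slc4a1 (adjusted p = 0.084), -1.21 for Alas2 (adjusted p = 0.13), -1.15 for Hba-a2 (adjusted p = 0.17) and -1.05 for Hba-a1 (adjusted p = 0.19). The summed level of the list ran from 692 to 2260 CPM at PND22 and from 474 to 685 CPM at PND42. The rats were killed by decapitation, and the part of residual blood in these values was not tested. Among called genes with a gene symbol, a mean of at least 1 log2 CPM and ages that did not overlap, Alox15 had the largest fall. It encodes a lipoxygenase that oxidises arachidonic and linoleic acid. It stood at 66.8, 39.5, 86, 36.5 and 54.2 CPM at PND22 and at 2.52, 4.23, 8.11, 6.6 and 4.87 CPM at PND42, a log2 fold change of -3.37 (SE 0.29, adjusted p = 7.5e-05). It was called under every alternative that was run.

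Of 16 tested collagens and basement membrane genes, whose products wrap capillaries, 8 fell and none rose, with a median of -0.88. Col4a1 stood at 128, 144, 145, 114 and 119 CPM at PND22 and at 49.5, 63.4, 66.5, 83.3 and 42.2 CPM at PND42, a log2 fold change of -1.04 (SE 0.13, adjusted p = 0.00076). Its partner Col4a2 fell by 0.91 (SE 0.22, adjusted p = 0.018). Neither gene had overlapping groups. The laminin chains Lama4 and Lamb1 fell by 0.57 and 0.50 and the linker proteins Nid1 and Nid2 by 0.94 and 1.10. Without the thalamus-rich libraries 3 members were called lower, Col4a1 and Lamb1 among them, and the values of the others named were -0.52 for Col4a2 (adjusted p = 0.064), -0.55 for Lama4 (adjusted p = 0.072), -0.82 for Nid1 (adjusted p = 0.13) and -1.02 for Nid2 (adjusted p = 0.19). The fibrillar genes varied more: Col1a1 was at 92.4, 24.3, 126, 31.5 and 48.9 CPM at PND22 and between 10.1 and 65.9 CPM at PND42, and did not pass (adjusted p = 0.15). The meninges list had no call among its 10 tested members, a median of -0.51, and a summed level of 106 to 723 CPM at PND22 and 103 to 426 CPM at PND42. In the vessel list 5 of 11 tested members fell and 1 rose. Among them were the pericyte genes Rgs5, a regulator of G protein signalling, at -0.72 and Pdgfrb, the PDGF receptor that recruits pericytes, at -0.76. The VEGF receptor genes moved in opposite directions, with Kdr falling by 0.59 and Flt1 rising by 0.43. In the fit without the thalamus-rich libraries 1 vessel gene was called lower, Rgs5 (-0.68, adjusted p = 0.02), and 1 higher, Flt1, whereas Pdgfrb (-0.62, adjusted p = 0.075) and Kdr (-0.54, adjusted p = 0.11) were not called.

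Of 23 tested genes of immature neurons and axon growth 8 fell and none rose, with a median of -0.18. Dcx, the microtubule protein doublecortin of migrating neurons, stood at 70.5, 76.5, 62.4, 56.1 and 69.6 CPM at PND22 and at 34.8, 40.5, 48.6, 50.4 and 35.4 CPM at PND42, a log2 fold change of -0.62 (SE 0.10, adjusted p = 0.003). Its groups did not overlap. Tubb2b, a tubulin of growing neurites, fell by 0.46 (SE 0.07, adjusted p = 0.0025), the surface glycoprotein gene Cd24 by 0.58 and the netrin receptor gene Dcc by 0.67. Without the 3 thalamus-rich libraries 1 member was called, Tubb2b (-0.51, adjusted p = 0.0062), and Dcx (-0.43, adjusted p = 0.062), Cd24 (-0.47, adjusted p = 0.08) and Dcc (-0.28, adjusted p = 0.14) were not. The cell division list showed little: 1 of its 24 tested members, the kinesin gene Cenpe, fell (log2 fold change -0.58, SE 0.17, adjusted p = 0.039), and the list median was -0.19. Cenpe lost its call in 8 of 10 fits that left out 1 library and without the 3 libraries (-0.75, adjusted p = 0.12). Mki67, the proliferation antigen, ran from 2.97 to 4.83 CPM at PND22 and from 1.65 to 3.28 CPM at PND42 (adjusted p = 0.078).

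Among the DNA methylation and polycomb genes, Dnmt3a, which places new methyl groups on DNA, fell from 43.2, 47, 40.2, 36.5 and 41.2 CPM to 18.4, 23.7, 23.1, 29 and 14.2 CPM (log2 fold change -0.89, SE 0.13, adjusted p = 0.0019). Tet1, which starts their removal, fell by 0.95 (SE 0.15, adjusted p = 0.0025). The catalytic subunits of polycomb complex 2 moved apart: Ezh2, the form of dividing cells, fell by 0.53 (SE 0.15, adjusted p = 0.034) and Ezh1, the form of resting cells, rose by 0.48 (SE 0.06, adjusted p = 0.00081). Ezh2 went from between 7.47 and 10.9 CPM to between 4.46 and 7.31 CPM, and Ezh1 from between 64.5 and 72 CPM to between 80.8 and 99 CPM. The call of Ezh2 was lost in 5 of 10 fits that left out 1 library and with a replicate block. The chromobox genes also moved apart, with Cbx8 falling by 0.44 and Cbx7 rising by 0.61. Over the 19 tested members 4 fell and 2 rose, with a median of -0.28. Without the thalamus-rich libraries 1 member was called lower and 2 higher, and Tet1 (-0.75, adjusted p = 0.068), Ezh2 (-0.46, adjusted p = 0.24) and Cbx8 (-0.41, adjusted p = 0.19) were not called, with folds near those of all libraries.

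Among 30 tested neuropeptide genes 6 rose and 5 fell, with a median of 0.07. Oxt, the oxytocin gene of the supraoptic and paraventricular nuclei, stood at 9.31, 13.6, 7.66, 2.28 and 7.81 CPM at PND22 and at 122, 67.5, 152, 98 and 81.4 CPM at PND42. Each PND42 library was at least several times above the highest PND22 library, and the log2 fold change was 3.73 (SE 0.33, adjusted p = 8.1e-05). Avp, the vasopressin gene next to it on the chromosome, stood at 25.5, 42.6, 26, 8.78 and 23.1 CPM and then at 135, 62.8, 145, 87.4 and 117 CPM (log2 fold change 2.19, SE 0.32, adjusted p = 0.0019). PND42 replicate 2 was lowest and PND42 replicate 3 highest for both peptides. Vip, the peptide of the core of the suprachiasmatic nucleus, went from 0.676, 1.72, 4.09, 3.3 and 2.44 CPM to 41.2, 28.9, 16, 17.9 and 12.5 CPM (log2 fold change 3.30, SE 0.42, adjusted p = 0.00076). Ucn3, the stress peptide urocortin 3, rose by 2.05 and Grp, the gastrin-releasing peptide of the same clock nucleus, by 0.93. The rises of Oxt, Avp, Vip and Ucn3 were called without the 3 thalamus-rich libraries, with log2 fold changes of 3.95, 2.22, 2.79 and 1.81, and that of Grp was not (0.91, adjusted p = 0.06).

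The letters before the transcription start of Oxt and Avp are shown because these neighbouring peptide genes both rose. Both are the 250 bases upstream of the start in RefSeq, build GRCr8, read 5′ to 3′ on the strand of the gene. Capitals mark TGACC, a letter run found in the binding sites of estrogen and related nuclear receptors, on either strand; this motif was chosen after the values were seen. The windows are chr3:138235504-138235753 on the plus strand for Oxt and chr3:138248523-138248772 on the minus strand for Avp.
Oxt: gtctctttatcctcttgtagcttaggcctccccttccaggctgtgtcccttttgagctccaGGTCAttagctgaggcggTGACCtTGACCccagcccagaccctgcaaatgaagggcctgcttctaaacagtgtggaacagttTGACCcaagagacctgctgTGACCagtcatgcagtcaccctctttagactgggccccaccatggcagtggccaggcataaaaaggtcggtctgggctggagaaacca
Avp: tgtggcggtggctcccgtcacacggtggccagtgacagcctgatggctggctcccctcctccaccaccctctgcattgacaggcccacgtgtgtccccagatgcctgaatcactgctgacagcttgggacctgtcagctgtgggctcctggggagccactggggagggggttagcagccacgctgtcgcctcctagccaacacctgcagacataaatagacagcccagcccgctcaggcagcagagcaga
The Oxt window held 5 matches and the Avp window 0. In windows of 300 bases, TGACC was found in 8 of the 25 neuropeptide genes with an entry (32%) and in 40.2% of all 27457 promoters. A pair of copies joined by a T was read off the Oxt window. It was found in 1 of the 25, which is Oxt itself, and in 7 of all promoters (0.0255%). Because Oxt supplied the pattern, these counts cannot show enrichment in the list. A match is a run of letters, and binding was not measured.

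Of the 11 tested markers of the preoptic area, in front of the MBH, 3 rose, 1 fell and 7 were not called, with a median of 0.21. Zic1, a transcription factor of the medial preoptic and septal region, stood at 7.77, 8, 6.59, 5.47 and 6.08 CPM at PND22 and at 31.4, 31.3, 15.1, 13.2 and 18.3 CPM at PND42 (log2 fold change 1.75, SE 0.25, adjusted p = 0.0015), and its relative Zic4, which is not on that list, rose by 2.02. Both groups lay apart, and both genes were called without the thalamus-rich libraries. Ntng1, a netrin-like axon guidance protein, rose by 1.51 and was not called without those libraries (0.31, adjusted p = 0.13). The summed level of the preoptic list was 290 to 379 CPM at PND22 and 242 to 326 CPM at PND42, against 303 to 629 CPM in the POA of the PND22 rats. The 303 CPM is that of POA PND22 replicate 4, which goes against its region label. The other POA libraries of PND22 stood at 494 to 629 CPM. The part of these regional differences in the peptide rises was not tested.

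The 5 peptide genes that fell included those of arcuate and neighbouring neurons. Agrp, the appetite peptide of the arcuate nucleus, stood at 14.6, 16.6, 15.8, 17.3 and 11.2 CPM at PND22 and at 9.22, 4.23, 9.31, 9.66 and 8.17 CPM at PND42, a log2 fold change of -0.84 (SE 0.19, adjusted p = 0.016). The groups did not overlap. Npvf, the precursor of the gonadotropin-inhibitory RFamide peptides, went from between 37.7 and 53.5 CPM to 20.8, 16.3, 21.9, 20.8 and 43 CPM (log2 fold change -0.78, SE 0.23, adjusted p = 0.041). Of the PND42 libraries, replicate 5 overlapped the younger rats, and the call was lost in 9 of 10 fits that left out 1 library. Npw, neuropeptide W, was nearly absent at PND42: it had 43 to 78 counts in each PND22 library, 291 in all, and 0 or 1 in each PND42 library, 3 in all. The PND22 to PND42 ratio per counted read was 106 (95% interval 36 to 518, counting error only). Without the thalamus-rich libraries Npw and Npvf were called lower and Agrp was not (-0.67, adjusted p = 0.072). Nmb, a bombesin-like peptide, fell by 0.95 (without those libraries -0.98, adjusted p = 0.12) and Adcyap1, the peptide PACAP of the ventromedial nucleus, by 0.30 (without them -0.19, adjusted p = 0.26).

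The peptides of the GnRH pulse generator itself did not pass the test. Kiss1, kisspeptin, stood at 2.61, 2.74, 1.3, 1.25 and 1.91 CPM at PND22 and at 0.922, 0.828, 1.6, 1.22 and 1.98 CPM at PND42 (log2 fold change -0.50, SE 0.31, adjusted p = 0.27). Tac3, neurokinin B, had a log2 fold change of 0.29 (SE 0.15, adjusted p = 0.2) and Pdyn, dynorphin, one of -0.41 (SE 0.13, adjusted p = 0.052). The Kiss1 and Tac3 groups overlapped, whereas each Pdyn value at PND42 (86.5 to 132 CPM) was below each at PND22 (136 to 199 CPM). Pomc, the source of alpha-MSH, stood at 27.3 to 55.4 CPM and at 15.8 to 42.6 CPM (adjusted p = 0.6), and Pmch, melanin-concentrating hormone, at 823 to 1570 CPM and at 1060 to 1760 CPM (adjusted p = 0.57). Npy is listed at 0 in each of the 10 libraries. The symbol Gnrh1 stands on 2 rows of the table, and the row that was tested stood at 0.379 to 1.83 CPM and at 0.535 to 2.14 CPM (adjusted p = 0.38).

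**Figure D4:**
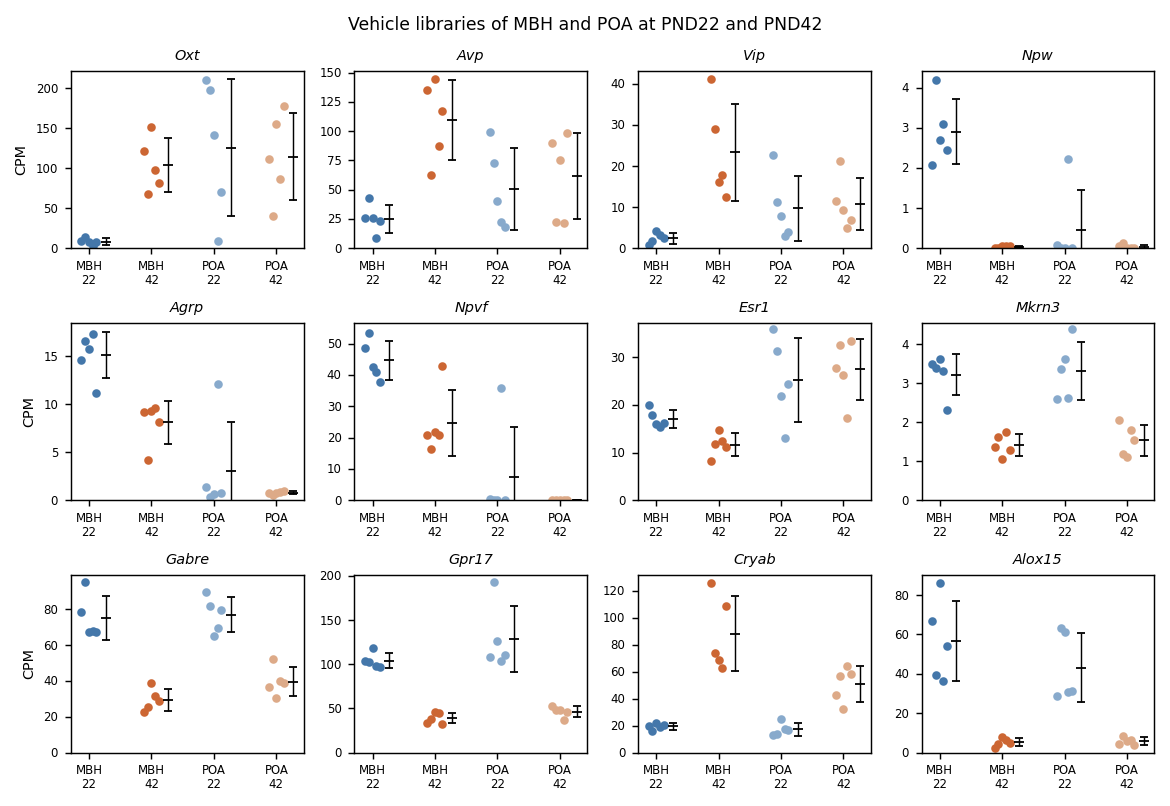
Level in CPM of 12 genes in the vehicle libraries of the MBH and the POA at PND22 and PND42, 5 libraries a group, with mean and SD (n = 5) to the right of the points. Oxt, Avp and Vip separate the ages in the MBH and not in the POA, where PND22 replicate 4 is the lowest point for Oxt and the highest for Npw, Agrp and Npvf; Mkrn3, Gabre, Gpr17, Cryab and Alox15 separate the ages in both regions.

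Of 29 tested receptors of this network 7 fell and 2 rose, with a median of -0.21, where 7.31% of all genes fell and 8.13% rose. Without the thalamus-rich libraries 1 was called lower and 1 higher, as was the case with all 21 MBH groups in the fit. Calcr, the calcitonin receptor of arcuate neurons, stood at 245, 263, 200, 219 and 201 CPM at PND22 and at 88.9, 94.9, 155, 134 and 119 CPM at PND42 (log2 fold change -0.87, SE 0.13, adjusted p = 0.0022). It was the 1 receptor whose fall was called without the 3 thalamus-rich libraries (log2 fold change -0.64, adjusted p = 0.018). Tshr, the thyrotropin receptor, fell by 0.86 (SE 0.17, adjusted p = 0.0078) and the melanocortin receptor gene Mc3r by 0.57, and without those libraries neither was called (-0.61, adjusted p = 0.11, and -0.33, adjusted p = 0.28). Esr1, estrogen receptor alpha, stood at 20, 17.9, 16, 15.3 and 16.1 CPM and then at 8.15, 11.9, 14.8, 12.4 and 11.2 CPM (log2 fold change -0.49, SE 0.13, adjusted p = 0.028). Its groups did not overlap, but the difference was lost without the thalamus-rich libraries (-0.32, adjusted p = 0.25) and in 3 fits that left out 1 library. Of the neuropeptide Y receptors Npy2r fell by 0.62 and Npy1r rose by 0.55. Both lost their calls in 4 of 10 fits that left out 1 library and without the thalamus-rich libraries, where Npy2r was at -0.37 (adjusted p = 0.29) and Npy1r at 0.16 (adjusted p = 0.43). Kiss1r, the kisspeptin receptor, stood between 3.2 and 4.57 CPM and between 3.93 and 6.11 CPM (log2 fold change 0.48, SE 0.16, adjusted p = 0.054), and Esr2, estrogen receptor beta, had an adjusted p of 0.9. Pgr, the progesterone receptor, had a log2 fold change of 0.22 (SE 0.19, adjusted p = 0.43) and was called higher without the thalamus-rich libraries (0.66, adjusted p = 0.028).

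Of 18 tested regulators of puberty timing 4 fell and none rose, with a median of -0.21, and 3 of the 4 falls were called without the thalamus-rich libraries. Mkrn3, a ubiquitin ligase whose loss in children brings precocious puberty, stood at 3.48, 3.38, 3.62, 3.3 and 2.31 CPM at PND22 and at 1.36, 1.61, 1.07, 1.76 and 1.28 CPM at PND42, a log2 fold change of -1.12 (SE 0.19, adjusted p = 0.0037). The ages did not overlap. It was the 1 that was not called without those libraries, where its log2 fold change was -1.18 (adjusted p = 0.062). Igsf10, which guides migrating GnRH neurons, went from 29.7, 27, 29, 19.1 and 26 CPM to 12.1, 14.3, 15.1, 17.3 and 12.7 CPM (log2 fold change -0.82, SE 0.12, adjusted p = 0.0015). Nkx2-1, a transcription factor that patterns the basal hypothalamus, fell by 0.91 (SE 0.12, adjusted p = 0.0011). Gabre, the epsilon subunit of the GABA-A receptor, stood at 78.6, 95.5, 67.1, 67.7 and 67.6 CPM and then at 22.6, 25.4, 38.8, 31.5 and 29 CPM (log2 fold change -1.30, SE 0.13, adjusted p = 0.0002). Lin28b, an RNA-binding repressor of let-7, was below the filter, with at most 0.755 CPM in a library.

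Gabre was 1 of 7 GABA genes that fell, against 5 that rose, of 24 tested. Gabra2, the alpha 2 subunit, stood at 108, 91.9, 89.5, 93.1 and 99.1 CPM at PND22 and at 45.4, 61.3, 77.5, 79.1 and 42.5 CPM at PND42 (log2 fold change -0.61, SE 0.14, adjusted p = 0.015), and Gabra5 fell by 0.31 and Gabrg3 by 0.48. PND42 replicates 3 and 4 were the closest to the younger rats for Gabra2. Gabrd, the delta subunit of thalamic relay neurons, stood between 1.25 and 2.2 CPM at PND22 and at 55.1, 51.1, 1.43, 2.98 and 24.3 CPM at PND42 (log2 fold change 4.00). Its high values are those of the 3 thalamus-rich libraries, and without them the log2 fold change was 0.31 (adjusted p = 0.68). Gabrd is itself among the thalamic markers by which those libraries were picked. A smaller rise without them was therefore set by that choice. The chloride importer gene Slc12a2 rose by 0.38 and the exporter gene Slc12a5 had a log2 fold change of -0.12 (SE 0.11, adjusted p = 0.47). Gad1 and Gad2, the GABA-synthesising enzymes, had log2 fold changes of 0.02 and 0.04. Without the thalamus-rich libraries 1 member was called, Gabre, and Gabra2 was at -0.30 (adjusted p = 0.08), Gabra5 at -0.31 (adjusted p = 0.075), Gabrg3 at -0.37 (adjusted p = 0.18) and Slc12a2 at 0.29 (adjusted p = 0.28).

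Of 27 tested glutamate receptor and transporter genes 5 fell and 3 rose. Grm3, a metabotropic receptor shared by astrocytes and neurons, was the clearest of them, at 20.9, 22, 22.9, 27 and 24.9 CPM at PND22 and at 45.6, 50.7, 48.2, 49.9 and 55 CPM at PND42 (log2 fold change 1.14, SE 0.10, adjusted p = 7.3e-05). The 2 groups were tight and far apart, and it was the 1 member called without the thalamus-rich libraries. Slc17a7, the vesicular transporter of cortical and thalamic neurons, followed the thalamic pattern with 38.3, 30.8, 1.69, 2.14 and 22.3 CPM at PND42 against 0.799 to 2.27 CPM at PND22. Without those libraries Slc17a7 was at 0.07 (adjusted p = 0.95). Gria2, an AMPA receptor subunit, fell by 0.39 (without them -0.22, adjusted p = 0.15). Grin1 and Grin2b, core subunits of the NMDA receptor, had log2 fold changes of -0.12 and 0.12 and did not pass.

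Of 21 tested genes of cholesterol synthesis and uptake 8 rose and 1 fell, with a median of 0.17. Msmo1, a methyl sterol oxidase, stood at 113, 119, 138, 140 and 137 CPM at PND22 and at 182, 176, 158, 165 and 217 CPM at PND42 (log2 fold change 0.53, SE 0.11, adjusted p = 0.011), and the squalene synthase gene Fdft1 rose by 0.35. Neither gene had overlapping groups. Without the thalamus-rich libraries 1 member was called higher, and Msmo1 (0.32, adjusted p = 0.12) and Fdft1 (0.27, adjusted p = 0.15) were not called. The sterol response element TCACNCCAC was in none of 15 list promoters with a RefSeq entry and in 1.13% of all. For the cell division list, the TTTGAA core was in 11 of 21 promoters (52.4%, against 18.1% of all) and CCAAT in 16 (76.2%, against 37.7%). Gpd1, a cytosolic glycerol phosphate dehydrogenase that is on no list, went from 85.3, 53.5, 90, 90.4 and 70.2 CPM to 552, 267, 352, 234 and 219 CPM (log2 fold change 2.12, SE 0.25, adjusted p = 0.00041).

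Targets of thyroid and steroid hormones gave 5 rises and 2 falls among 17 tested, with a median of 0.29. Thrsp, a thyroid hormone-induced factor of fat synthesis, stood at 3.33, 0.913, 3.16, 4.01 and 3.42 CPM at PND22 and at 28.6, 14.6, 12.9, 16.9 and 28.8 CPM at PND42 (log2 fold change 2.84, SE 0.35, adjusted p = 0.0006). Sgk1, a kinase induced by corticosteroids, stood at 44.4, 29.7, 41.1, 37.2 and 50.1 CPM and then at 211, 94.9, 122, 109 and 50.1 CPM (log2 fold change 1.58, SE 0.28, adjusted p = 0.0053). PND42 replicate 5 lay level with the highest younger rat, and the other 4 were above it. Srd5a1, 5 alpha-reductase of neurosteroid synthesis, rose by 0.65 (without the thalamus-rich libraries 0.45, adjusted p = 0.19). Of 16 clock genes 2 rose (8.13% of all genes did), Ciart by 0.81 and Dbp by 0.41, of which Dbp was called without those libraries and Ciart was not (0.67, adjusted p = 0.08). Of 15 immediate early genes 1 rose, Dusp1 by 0.97, which lost its call in 6 of 10 fits that left out 1 library and without those libraries (0.41, adjusted p = 0.39), and Fos had a log2 fold change of 0.36 (SE 0.33, adjusted p = 0.46). The mitochondrially encoded transcripts, a sign of RNA and tissue quality, had no call among 13. Their summed level stood apart in PND42 replicate 5, at 96700 CPM against 61100 to 75900 CPM in the other libraries of the 2 ages.

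Of 14 astrocyte genes 5 rose and none fell, among them S100b, a calcium-binding protein, from between 1220 and 1420 CPM to 1840, 1860, 1870, 1740 and 2710 CPM (log2 fold change 0.72, SE 0.13, adjusted p = 0.0059), and the glycolytic enzyme gene Aldoc by 0.50. S100b was the 1 astrocyte gene called without the thalamus-rich libraries, where Aldoc was at 0.29 (adjusted p = 0.18). Of 14 microglial genes 1 rose and 1 fell, near the shares of all genes (8.13% rose and 7.31% fell). The fall was that of the fractalkine receptor gene Cx3cr1, by 0.48 (without those libraries -0.45, adjusted p = 0.14). Of 11 tanycyte genes 3 fell and none rose, Gpr50, the melatonin-related receptor, by 1.05 (SE 0.21, adjusted p = 0.0089). Without those libraries no tanycyte gene was called, and Gpr50 was at -0.92 (adjusted p = 0.16). Markers of the nuclei fell in part: 4 of 8 of the ventromedial nucleus, led by Nr5a1, its defining transcription factor SF-1, which went from 13.5, 15, 9.84, 7.8 and 12.2 CPM to 4.9, 3.46, 6.95, 6.98 and 4.29 CPM (log2 fold change -1.08, SE 0.20, adjusted p = 0.0072), and 4 of 12 of the arcuate nucleus. Leaving out the thalamus-rich libraries, 1 ventromedial and 0 arcuate genes were called lower, and Nr5a1 was at -0.74 (adjusted p = 0.12). Of 8 genes of the mammillary body behind them 1 fell, near the share of all genes that fell (7.31%). It was Foxb1, by 0.72 (SE 0.13, adjusted p = 0.0066), and it was not called without the thalamus-rich libraries (-0.61, adjusted p = 0.1). The part of the thalamic transcripts in these falls was not tested.

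**Figure D5:**
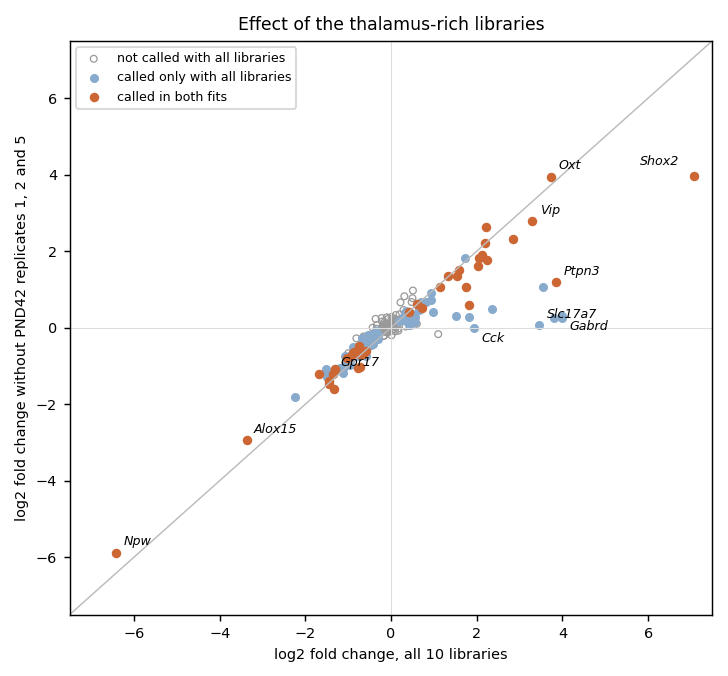
Log2 fold change of 210 named genes and list members with all 10 libraries (x axis) and without PND42 replicates 1, 2 and 5 (y axis). Orange points (39) were called in both fits, light blue points (88) with all libraries only; the thalamic genes Gabrd and Slc17a7, and Cck, fall to near 0 on the y axis, whereas Oxt, Vip, Alox15, Gpr17 and Npw stay near the diagonal.

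The supraoptic and paraventricular list had 3 rises, Oxt, Avp and Ucn3, and 1 fall among 10 tested, with a median of 0.17. The suprachiasmatic list had 4 rises, Vip, Grp, Avp and the G protein regulator Rgs16, and 1 fall among 8, with a median of 0.42. Avp is on both lists, and Rgs16 is on the thalamus list too. Without the thalamus-rich libraries each list had 3 members called higher and 0 lower. The log2 fold change of Rgs16 went from 1.83 to 0.60 (adjusted p = 0.047) without them and to 0.29 (adjusted p = 0.5) with the thalamic covariate. Of 10 genes of the perineuronal net and brain matrix 3 fell and 1 rose, among them Has2, a hyaluronan synthase, which fell by 0.92 (without the thalamus-rich libraries -0.72, adjusted p = 0.3), and the link protein gene Hapln1, which fell by 0.58 and was called in both. There was 1 fall each in the ependymal (of 8), choroid plexus (of 7), pituitary (of 5) and midbrain dopamine (of 8) lists, the last that of Slc18a2, the vesicular monoamine transporter, at -0.84 (SE 0.15, adjusted p = 0.0053). The striatum list had 2 falls of 12. Over all genes 7.31% fell, so that single calls in lists of this size are near the background, and without the thalamus-rich libraries none of these 5 lists had a call, with Slc18a2 at -0.54 (adjusted p = 0.064). The cortex and hippocampus list had 1 rise of 9, Tbr1 (log2 fold change 1.73), which lost its call in 6 of 10 fits that left out 1 library and was at 1.83 without the thalamus-rich libraries (adjusted p = 0.2). Among genes on no list, Pnlip, pancreatic lipase, stood at 40.4, 41.6, 45.9, 52.6 and 48.6 CPM at PND22 and at 18.6, 17.8, 14.9, 15.2 and 21 CPM at PND42, a log2 fold change of -1.33 (SE 0.13, adjusted p = 0.00015). Pgr15l, an orphan G protein-coupled receptor, fell by 1.69 (SE 0.22, adjusted p = 0.00084), and Col20a1, a collagen with interrupted helices, by 1.45 (SE 0.17, adjusted p = 0.00042).

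The thalamic genes themselves had the largest rises. Shox2, a transcription factor of thalamic neurons, had 8 counts over the 5 PND22 libraries and 1160 over the 5 PND42 libraries, a ratio of 132 (95% interval 66.7 to 306, counting error only), with 23.4, 19.4, 1.34, 1.3 and 8.87 CPM at PND42. Ptpn3, a tyrosine phosphatase, stood between 7.8 and 8.99 CPM at PND22 and at 233, 210, 16.2, 22.1 and 95.9 CPM at PND42. Both were raised in the 2 libraries with few thalamic transcripts too, with log2 fold changes of 3.97 (adjusted p = 0.0079) and 1.19 (adjusted p = 0.0022). Cck, the peptide cholecystokinin, followed the same libraries with 63.2, 50.5, 8.87, 9.03 and 32.1 CPM against 4.87 to 11.8 CPM, and its log2 fold change of 1.94 went to 0.00 without them. The rises of Rab37, a small GTPase, and Ramp3, a receptor activity-modifying protein, went to 1.07 (adjusted p = 0.13) and 0.50 (adjusted p = 0.14), and those of Prkcd and Mybpc1 to 0.41 (adjusted p = 0.51) and 0.25 (adjusted p = 0.88). Ptpn3, Ramp3, Prkcd and Mybpc1 are among the markers by which the thalamus-rich libraries were picked, so that their smaller rises follow from that choice.

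The same ages were compared in the POA, which shares no library with the MBH. By the rat numbers in the labels, however, nearly all of these rats gave both regions. Calls shared by the regions therefore come largely from the same animals and are not an independent repeat. In the POA 3852 of 14350 tested genes changed (26.8%, 1938 higher and 1914 lower), and 3804 did without PND22 replicate 4. Both regions called 1264 genes, 55.1% of the MBH calls and 32.8% of the POA calls, and 1262 of them had the same sign. Without that library 1202 were shared and 1194 had the same sign. The POA also held more thalamic transcripts at PND42, with sums of 231, 213, 740, 196 and 307 CPM against 183, 227, 183, 185 and 160 CPM at PND22, and 4 of 13 thalamic markers were higher there (median 1.01). Their part in the calls that the regions share was not tested. Alox15 fell by 2.88 in the POA, Gpr17 by 1.46, Mkrn3 by 1.11 and Gabre by 0.96, while Tf rose by 1.59, Cryab by 1.57 and Thrsp by 2.33, each called with and without that library. The precursor list had 8 of 13 members lower in the POA, the collagens 9 of 16 and the immature neuron list 10 of 23. Of all tested POA genes 13.3% were lower. Without POA PND22 replicate 4 the counts were 8 of 13, 7 of 16 and 10 of 23.

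The difference of the age change between the regions was tested directly, and no gene of 15015 passed with edgeR (1623 had an unadjusted p under 0.05), whereas DESeq2 called 56. Without MBH PND42 replicate 5, 46 genes passed, without MBH PND22 replicate 2, 14, and without MBH PND22 replicate 4, 1. Without POA PND22 replicate 4, 6 genes passed. These were Oxt with a difference of 4.17 on the log2 scale (SE 0.55, adjusted p = 0.0021), Zic1 with 2.21 (SE 0.29, adjusted p = 0.0021), Zic4 with 1.71 (SE 0.24, adjusted p = 0.0032), Ucn3 with 3.00 (SE 0.45, adjusted p = 0.0057), Maob, monoamine oxidase B, with -0.87 (SE 0.14, adjusted p = 0.015), and AC128207.1 with 0.56 (SE 0.10, adjusted p = 0.031). Maob and AC128207.1 lie outside the naming rule and were chosen after their values were seen. Oxt in the POA stood at 210, 198, 142, 8.33 and 70.5 CPM at PND22 and at 111, 40.5, 155, 86.7 and 178 CPM at PND42. The POA was high at both ages apart from its PND22 replicate 4, and the MBH was high at PND42 and low at PND22. For Avp and Vip the differences without that library were 2.08 (SE 0.65, adjusted p = 0.2) and 3.36 (SE 0.67, adjusted p = 0.085).

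The remaining comparisons rest on libraries whose age score went against their label, and are given as values of the libraries so labelled. Between the MBH vehicle libraries labelled PND90 and those of PND42, 1817 of 14807 genes differed (12.3%), 958 higher (6.47%) and 859 lower (5.8%) at PND90. Between those labelled PND90 and those of PND22, 10 of 14745 differed (0.0678%), 4 higher (0.0271%) and 6 lower (0.0407%), 2189 had an unadjusted p under 0.05, and DESeq2 called 318. The 10 rose to 197 without PND90 replicate 4 and to 18 without PND22 replicate 4, and were 0 to 3 without any other library. The 1817 ran from 961 to 2823, with 1044 and 1060 without PND42 replicate 1 or 2, 1072, 1111, 961 and 997 without PND90 replicate 1, 2, 3 or 5, and 2823 without PND42 replicate 4. Gpr17 stood at 136, 115, 135, 106 and 122 CPM in the libraries labelled PND90, Cryab at 21.4, 20.1, 19.1, 16.3 and 23.4 CPM and Alox15 at 50, 43.6, 27.7, 85.5 and 36.3 CPM. All 3 lay at or near the PND22 levels. Oxt in the same libraries stood at 16.1, 26.5, 96.7, 9.46 and 58.5 CPM, between the ages. Against the mean age change of the DES groups, the vehicle age change differed in 804 of 15495 genes (5.19%), 531 higher (3.43%) and 273 lower (1.76%). Both of these comparisons share libraries with the age comparison of the vehicle MBH. The 804 became 439 or 450 without PND22 vehicle replicate 1 or 2, 365, 421 or 480 without PND42 vehicle replicate 1, 2 or 5, and 1501 without PND22 replicate 3 of the 3 µg/kg and replicate 4 of the 12 µg/kg DES group. Shox2, Mybpc1, Gabrd and Prkcd, all transcripts of the thalamus, were among the 5 largest differences. The mean of Prkcd, a protein kinase C of thalamic neurons, went from 12.4 to 155 CPM in vehicle rats and from 206 to 108 CPM in the DES groups. Npw, which fell in vehicle rats, had a difference of -6.61 (SE 0.76, adjusted p = 1.1e-06), and Oxt one of 3.73 (SE 0.68, adjusted p = 0.00078).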

How the data were processed

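RNA of the MBH was sequenced as stranded poly(A) libraries, in paired reads of a NovaSeq instrument. Per the methods, the authors aligned reads to the rat genome with STAR and counted them per Ensembl gene with featureCounts (nf-core pipeline), and the deposited values are raw counts per gene; the strand setting and the treatment of multimapping reads are not given in the sources used here. From the counts, edgeR 4.0.16 (R 4.3.3; TMM scaling, filterByExpr with a minimum count of 10, quasi-likelihood F test, Benjamini-Hochberg adjustment) was fitted to the 10 libraries, without covariates, and genes with an adjusted p under 0.05 were called. The SE was obtained as the absolute log2 fold change over sqrt(F). Differences of age changes were contrasts of 1 fit over all libraries concerned. The log2 values are fitted fold changes and CPM are counts over the library total, without TMM scaling. DESeq2 1.42.0, other scaling, no filter, a replicate block, wider fits and leaving out each library were the alternatives. The fit was tested on simulated data. Nothing says whether replicates came from separate litters, so p-values measure the spread between these samples. Intervals and ratios cover counting error only.

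The members and the gene lists were chosen with earlier results of these data known. Genes were named where called, with a gene symbol, a mean of at least 1 log2 CPM and ages that did not overlap (the 12 largest rises and 12 largest falls), plus up to 4 called members per list with the largest change and members of the neuropeptide, receptor, puberty, GABA and glutamate lists. Other list members were named to describe their list after their values were seen. The alternatives without 3 thalamus-rich libraries and with a thalamic covariate, the POA comparison and that of PND90 with PND22 were added after seeing the data. Promoter sequences are from RefSeq, build GRCr8. A few genes that the lists and rules hold are not reported here.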

Additional observations from a re-analysis of the deposited data

Results flagged for a closer look

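In 28 of 420 groups, formed by 210 genes at each age, 1 library lay apart from the other 4 by Dixon's test; chance gives about 1 in 20 groups. Of these, 27 are given here. PND42 replicate 5 was apart for 7 genes. It was high for Npvf (43 CPM, others 16.3 to 21.9), S100b (2710, others 1740 to 1870), Pmch (1760, others 1060 to 1190) and Enpp6 (22.8, others 13.3 to 15.4), and low for Hapln2 (15.3, others 24.4 to 27.2), Grin2d (26, others 32.7 to 35.3) and Ccdc155 (0.908, others 1.31 to 1.47). PND42 replicate 4 was high for Alas2 (8.24, others 4.17 to 5.26), Nid1 (65.2, others 40.7 to 47.4), Has2 (1.6, others 0.73 to 0.922) and Yy1 (21.9, others 18.3 to 19.3). PND42 replicate 2 was low for Agrp (4.23, others 8.17 to 9.66) and Galp (0.974, others 3.08 to 3.78), and PND42 replicate 3 was high for Grm8 (28.7, others 21.3 to 23.2).

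At PND22, replicate 2 was apart for 7 genes. It was low for Thrsp (0.913 CPM, others 3.16 to 4.01) and Enpp6 (20, others 28.7 to 30.2), and high for Tbx19 (10.4, others 5.96 to 6.93), Nptx2 (150, others 99 to 113), Gal (55.6, others 35.1 to 40.3), Grin1 (521, others 429 to 445) and Dlk1 (102, others 67.8 to 71.9). Replicate 1 was high for Tbr1 (0.676, others 0.0464 to 0.217) and low for Yy1 (18.9, others 22 to 22.6). Replicate 3 was high for S100b (1420, others 1220 to 1270) and low for Gad2 (379, others 517 to 573). Replicate 4 was high for Has2 (2.44, others 1.74 to 1.9), and replicate 5 was low for Mkrn3 (2.31, others 3.3 to 3.62).

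The age change differed between vehicle and DES rats by 8.27 on the log2 scale for Shox2 (adjusted p = 0.00589), 4.98 for Mybpc1 (adjusted p = 0.0489), 4.86 for Gabrd (adjusted p = 0.0319) and 4.72 for Prkcd (adjusted p = 0.0208), each higher in vehicle rats. Libraries of the DES groups went against their age labels. These genes are transcripts of the thalamus and spread widely between libraries. Prkcd had a mean of 155 CPM (SD 152) in vehicle rats at PND42 and of 206 CPM (SD 171) in the DES groups at PND22. The part of uneven thalamic content in these differences was not tested.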

How the results depend on the processing

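In the MBH vehicle rats, the 2295 genes called between the ages became 975 with a replicate block, 1113 with all 21 MBH groups in the fit, 317 without the 3 thalamus-rich PND42 libraries, 86 with the thalamic level as a covariate and 1052 to 3548 without 1 library; DESeq2 called 3280. The difference between regions (0 calls) became 56 with DESeq2, 77 without the 3 thalamus-rich libraries, 6 without POA PND22 replicate 4 and 0 to 46 without 1 library. The difference from DES (804) became 1234 with DESeq2, 1501 without 2 DES libraries and 365 to 1160 without 1 vehicle library. PND90 against PND42 (1817) ran from 961 to 2823 without 1 library. PND90 against PND22 (10) became 318 with DESeq2, 27 with no filter, 1 with a replicate block, 1 with all 3 ages and 0 to 197 without 1 library. With the thalamic covariate the log2 fold changes of Gabrd, Mybpc1, Wnt9b, Gabbr2 and Cck turned to -0.03, -0.58, -0.01, -0.01 and -0.23. Of these, Gabrd, Mybpc1 and Wnt9b are among the markers that make up the covariate. Beyond fewer libraries in the fits that left some out, the cause was not tested. Over the alternatives, gene fold changes kept their direction and side of the threshold in 3206 cases, lost it in 526, gained it in 43 and turned in 5. The replicate numbers do not pair rats between ages: deviations of same-numbered libraries correlated at -0.0582, 0.0574, -0.228, -0.311 and 0.15. With 5 libraries a group, small differences may not pass.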
